A study of Saccharomyces cerevisiae and Kluyveromyces lactis with 95 samples.

Results

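The genes described here are those of ergosterol synthesis in *Saccharomyces cerevisiae*, with the proteins that regulate, esterify and move sterols. They were taken by name: 31 of the 5727 named *S. cerevisiae* genes, and their 28 orthologs among 5244 *Kluyveromyces lactis* genes. HMG1 and HMG2 have a single *K. lactis* ortholog between them, as have UPC2 and ECM22, and ARE1 and ARE2. Protein Kinase A (PKA) was inhibited in both yeasts with 3 µM 1-NM-PP1, a bulky ATP analog, and messenger RNA was counted from its 3′ ends 50 min later. In PKA-AS strains the gatekeeper residue of each PKA catalytic subunit is mutated, so that the kinase binds the drug, and PKA-WT strains have the unmutated kinase. All *S. cerevisiae* strains are of the W303 background and were grown in rich glucose medium, where PKA is active. Each culture was divided into a portion with 1-NM-PP1 and a portion with the solvent DMSO.

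The PKA-AS strains were of 4 genotypes, with MSN2 and MSN4 deleted (ΔMsn2/4), RPH1 and GIS1 deleted (ΔRph1/Gis1), all of these deleted (the quadruple deletion), or no deletion. *K. lactis* has 1 ortholog of each pair, and the same deletions were made there. Msn2, Msn4, Rph1 and Gis1 are transcription factors of the stress response downstream of PKA. In *S. cerevisiae*, every PKA-AS strain had 4 portions with 1-NM-PP1 and 4 with DMSO, and every PKA-WT strain, deleted in the same ways, had 3 and 3. In *K. lactis*, the PKA-AS strains had 4 and 4, except the double deletion with 3 and 3, and PKA-WT had 3 with 1-NM-PP1 and 2 with DMSO and no deletion.

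Ergosterol is the main sterol of yeast membranes. Acetyl-CoA is turned into mevalonate and then into farnesyl diphosphate, squalene synthase and the next enzymes make lanosterol, and the late enzymes turn lanosterol into ergosterol. Several late steps use oxygen and heme, and take electrons from the reductase Ncp1 or from cytochrome b5 (Cyb5). In *S. cerevisiae* the zinc-cluster factors Upc2 and Ecm22 bind a sterol response element, with the core TCGTATA, upstream of many of these genes and raise their transcription when sterols are low. Surplus sterol is esterified by Are1 and Are2.

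The sterol response element core was searched, on both strands, in the 700 bases before each start codon of the *S. cerevisiae* reference genome (R64, RefSeq, the sequence of strain S288C). It stood upstream of 11 of the 31 genes (35.5%), against 581 of 6005 genes of the genome (9.68%). The 11 are ERG1, ERG2, ERG3, ERG6, ERG8, ERG11, ERG12, ERG13, ERG25, ERG28 and CYB5. In the nearest 250 bases it stood upstream of 3 of the 31 (9.68%), against 229 of 6007 (3.81%). The stress response element of Msn2 and Msn4, AGGGG, stood in the 700 bases upstream of 17 of the 31 genes (54.8%), against 44.5% of all genes. The only match of ERG2, ERG8, ERG13, ERG27, ERG28, MVD1 and HES1 lay in the coding sequence of another gene. Matches in coding sequence were counted for all genes alike. The element of Gis1, TNAGGGAT, was in none of the 31 windows of 700 bases, and in 5.8% of all. A match of letters is not a bound site, and the promoters of *K. lactis* were not searched. The sites of the genes on which the results below turn are shown with 10 bases on each side, 5′ to 3′ on the strand of the gene, the core in capitals (TATACGA is the core on the opposite strand):

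ERG2: accacggcccTCGTATAagccgcaagg

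ERG3, first site: aaccggggtgTATACGAggccgatggc

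ERG3, second site: aaattcaggcTCGTATAagtggcacaa

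CYB5: aaaagaaagcTATACGAgatcgagata

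ERG6: gccccgatctTCGTATAtggtacctcg

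ERG11: aagtggatacTATACGAgcagcgcaca

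ERG1: tagcgggcctTCGTATAgctcggccga

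ERG25, first site: ctgcctccctTCGTATAcgggacacag

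ERG25, second site: gacacagagaTCGTATAcggtaaacga

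In R64 the ERG2 stretch lies at chrXIII:667342-667368, plus strand, with its core 179 bases before the start codon. The ERG3 stretches lie at chrXII:253525-253551 and chrXII:253565-253591, plus strand, 320 and 280 bases before it. The CYB5 stretch is chrXIV:417561-417587, minus strand, at 269 bases, and the ERG6 stretch is chrXIII:253406-253432, minus strand, at 426. ERG11 has its site at chrVIII:122275-122301, minus strand, at 602 bases, and ERG1 at chrVII:848789-848815, minus strand, at 376. The ERG25 stretches, chrVII:610071-610097 and chrVII:610091-610117, plus strand, lie 477 and 457 bases before the start codon. None of these sites lies in the coding sequence of another gene. The map of motif matches gives the distances for all genes with a match.

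**Figure D1:**
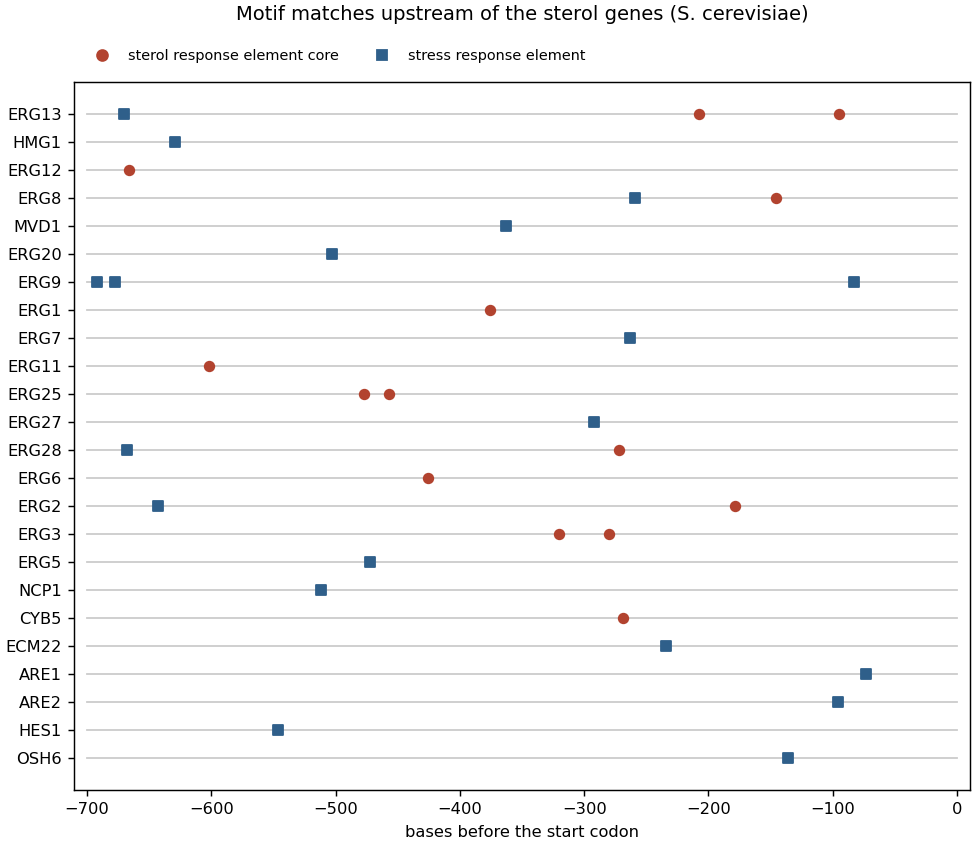
Matches of the sterol response element core and of the stress response element in the 700 bases before the start codon of the *S. cerevisiae* sterol genes, 1 row per gene, x axis in bases before the start codon. The 11 genes with the sterol core include ERG2, ERG3, ERG6, ERG11 and CYB5; HMG2, UPC2 and IDI1 are not among the genes drawn because no match was found.

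The 59 *S. cerevisiae* libraries used gave 56 culture portions once repeat libraries of a portion were summed. These portions held 188289 to 5443974 counts on genes (median 2082450.5), and 72.2 to 87.0% of the counts of a library fell on genes. The 35 *K. lactis* libraries held 815372 to 4117520 counts on genes (median 2405976), which were 83.1 to 90.0% of their counts. One library stated in its label to have been dropped was left out. Levels are given as CPM, counts per 1000000 of the library total on genes after that total was scaled by TMM (trimmed mean of M-values). In the *S. cerevisiae* PKA-AS strain without deletion, CTT1, a catalase gene activated by Msn2 and Msn4, averaged 4808 CPM with 1-NM-PP1 and 12.3 CPM with DMSO. In ΔMsn2/4 it averaged 33.1 and 9.34 CPM. In *K. lactis* with the Msn2/4 ortholog deleted, the CTT1 ortholog had 7717, 5233, 831 and 3330 CPM with 1-NM-PP1. Without deletion it had 2149, 2716, 4950 and 3952 CPM, so these groups overlapped. The deleted genes are a weak check of the labels. Per the study, the coding sequences of MSN2 and MSN4 were removed with 250 bases of their promoters. The source of the counts left on these genes was not tested. MSN2 had at most 4 counts in any ΔMsn2/4 or quadruple-deletion PKA-AS library. With 1-NM-PP1, MSN4 had 19.6, 7.99, 0 and 1.42 CPM in ΔMsn2/4 and 14.8, 5.24, 13.2 and 6.31 CPM in the quadruple deletion, against 33.98, 11.1, 31.7 and 20.1 CPM without deletion. Culture 1 of ΔMsn2/4 and cultures 1 and 3 of the quadruple deletion thus lay within the range of the undeleted strain. GIS1 averaged 6.99 CPM in ΔRph1/Gis1 with 1-NM-PP1, against 17.6 CPM without deletion, and RPH1 was not analysed here. In *K. lactis*, the gene that stands for both MSN2 and MSN4 had 2.49, 3.27, 1.90 and 1.22 CPM with 1-NM-PP1 where it was deleted, against 8.88, 6.18, 30.0 and 8.49 CPM without deletion. With DMSO it had 10.2, 0.954, 8.78 and 2.08 CPM where deleted, against 14.2, 12.0, 10.1 and 2.26 CPM, so DMSO cultures 1 and 3 labelled as deleted lay within the range of the undeleted strain. The *K. lactis* gene that stands for GIS1 and RPH1 averaged 4.76 CPM with 1-NM-PP1 where it was deleted, against 18.3 CPM without deletion, and with DMSO it had 6.15, 11.4, 6.44 and 14.3 CPM, against 11.3, 10.2, 12.9 and 8.28 CPM. Strains are named by their labels, which these counts cannot check for every library. The ΔMsn2/4 libraries with 1-NM-PP1 fell into 2 pairs: over genes with a mean log2 CPM above 4, cultures 1 and 2 correlated at 0.966 and cultures 3 and 4 at 0.925, but 0.708 to 0.773 across the pairs, and culture 3 had the fewest counts of the series. Calls that rest on these libraries are given with and without cultures 3 and 4. Culture 1 of ΔMsn2/4 with DMSO also stood apart, at 0.774 to 0.837 with the other 3, which correlated at 0.927 to 0.982 among themselves. Here ERG1 had 751 CPM, against 121 to 134 CPM in the other 3, and CYB5 had 152 CPM, against 14.2 to 45.7 CPM. Culture 3 of *K. lactis* with the Msn2/4 ortholog deleted and 1-NM-PP1 correlated at 0.774 to 0.870 with the others, which had 0.943 to 0.964. Cultures of the quadruple deletion with DMSO correlated at 0.794 to 0.974, and the lowest correlation within a group was 0.617, in the quadruple deletion of PKA-WT with 1-NM-PP1.

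PKA inhibition lowered 9 of the 31 sterol genes in *S. cerevisiae* and raised 3. Those lowered were IDI1, ERG7, ERG11, ERG6, ERG3, NCP1, CYB5, ECM22 and ARE2, and those raised were HMG2, ERG9 and HES1. A gene is called here when its adjusted p is under 0.01 (edgeR quasi-likelihood test, Benjamini-Hochberg over all 5779 genes tested). Of all genes, 21.2% were called lower and 20.7% higher, beside 29.0% of the sterol genes called lower and 9.68% called higher. Each culture gave both portions, and with the culture as a replicate block 45.2% of the sterol genes were called lower and 12.9% higher, against 25.6% and 25.7% of all genes. Of the 31, 7 were called lower with a log2 fold change (LFC) below -1, against 1113 of all 5779 genes (19.3%). Among genes called lower, these were 7 of the 9 sterol genes and 1113 of 1225 of all genes. The LFC was negative for 24 of the 31, with a median of -0.64, against 0.00 over all genes tested. The values are relative to the TMM-scaled total of messenger RNA counted in a library, not amounts per cell. All 31 genes passed the filter of 2 counts in 3 libraries.

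In *S. cerevisiae*, 3 late enzymes and both electron donors fell. ERG3, the sterol desaturase, had 295, 299, 377 and 281 CPM in the portions with 1-NM-PP1, against 1052, 1571, 1557 and 1091 CPM with DMSO (cultures 1, 2, 2017 and 3 as the labels number them, in this order here and below). The 4 portions with drug all lay below the 4 with DMSO, and the LFC was -2.07 ± 0.31 (SE; edgeR adjusted p = 1.53e-07). ERG11, the lanosterol demethylase that azole antifungals block, had 395, 453, 284 and 421 CPM with 1-NM-PP1, against 1075, 1412, 883 and 938 CPM with DMSO, an LFC of -1.47 ± 0.22. Its groups did not overlap either. Both genes were picked for the size of their LFC, so groups that lie apart are no added support. CYB5, whose protein passes electrons to the desaturase and other late enzymes, had 10.5, 6.03, 5.28 and 11.3 CPM with 1-NM-PP1, against 89.7, 22.5, 57.3 and 41.7 CPM with DMSO. That is an LFC of -2.66 ± 0.62 (edgeR adjusted p = 0.000331), the lowest of the 31, with a wide spread in DMSO where culture 1 was the highest. NCP1, the reductase that serves Erg11, had an LFC of -1.06 ± 0.22. ERG6, the methyltransferase that sets ergosterol apart from cholesterol, had 378, 416, 463 and 413 CPM with 1-NM-PP1, against 732, 797, 1147 and 928 CPM with DMSO. Its groups did not overlap, its LFC was -1.11 ± 0.29, and its call was lost without the 2017 cultures.

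Of the 11 late genes, 3 were called lower (ERG3, ERG6 and ERG11). The LFC of the other 8 ran between -1.83 for ERG2 and 0.71 for ERG28. ERG2, the sterol isomerase, had 19.99, 6.03, 9.39 and 19.6 CPM with 1-NM-PP1, against 82.7, 43.9, 47.4 and 23.3 CPM with DMSO. The groups did not overlap, but culture 3 differed little, and the adjusted p was 0.0172. With the culture as a replicate block, ERG2, ERG4, ERG8, ERG25 and MVD1 were called lower too, for 14 of the 31 in all, where 25.6% of all genes were, and OSH6 joined those called higher.

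The early pathway gave few calls. Among the 7 mevalonate genes, none was called lower by edgeR without a block or by DESeq2, and HMG2 was called higher. An unadjusted p under 0.05 in either direction was found for 3 of the 7, and for 3285 of all 5779 genes. MVD1, the decarboxylase that ends this stretch, had an LFC of -1.46 ± 0.52 (adjusted p = 0.0174) and ERG8, the kinase before it, -0.99 ± 0.34 (adjusted p = 0.013), and both were called lower with the replicate block. IDI1, the isomerase that makes dimethylallyl diphosphate, was lower with -0.95 ± 0.25. Of the 3 enzymes between farnesyl diphosphate and lanosterol, ERG7 (lanosterol synthase) was lower with an LFC of -1.35 ± 0.21, with 48.5, 36.2, 41.6 and 42.2 CPM under 1-NM-PP1 against 125, 93.1, 103 and 108 CPM under DMSO. ERG9 (squalene synthase) went the other way, at 0.90 ± 0.28, but its call was lost in 5 of the 8 fits that left out 1 library (adjusted p up to 0.0332; without DMSO culture 1, 2 or 3 or drug culture 2 or 3). ERG1 (squalene epoxidase) was not called, with an LFC of -1.12 ± 0.66.

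The duplicated genes are given copy by copy. HMG1 and HMG2 encode the HMG-CoA reductases, the regulated step of the mevalonate pathway. HMG2 had 248, 155, 162 and 145 CPM with 1-NM-PP1, against 73.7, 58.4, 71.8 and 54.3 CPM with DMSO, an LFC of 1.46 ± 0.28 (edgeR adjusted p = 1.88e-05), and its groups did not overlap. HMG1 had 183, 355, 319 and 237 CPM with 1-NM-PP1, against 271, 419.7, 396 and 402 CPM with DMSO, an LFC of -0.44 ± 0.38 that was not called. The HMG1 groups overlapped. ARE2, the major sterol acyltransferase, had 7.995, 13.6, 11.1 and 19.1 CPM with 1-NM-PP1, against 48.1, 62.4, 52.0 and 61.7 CPM with DMSO (LFC -2.11 ± 0.37). No portion with drug came near those with DMSO. ARE1 was hardly counted, with 3 counts over the 4 portions with 1-NM-PP1 against 11 with DMSO, a ratio of 0.296 (95% exact interval 0.0530 to 1.12, counting error only). Of the regulators, ECM22 had 36.0, 35.7, 37.0 and 31.4 CPM with 1-NM-PP1, against 70.1, 69.9, 56.5 and 57.5 CPM with DMSO (LFC -0.86 ± 0.18, edgeR adjusted p = 6.58e-05). UPC2 had 9.99, 16.6, 11.1 and 13.2 CPM with 1-NM-PP1, against 12.0, 14.5, 8.41 and 19.4 CPM with DMSO. The UPC2 groups overlapped throughout, with an LFC of -0.11 ± 0.35. The difference between the copies of a pair was not tested.

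HES1 encodes an oxysterol-binding protein homolog and was near the limit of counting. It had 18 counts over the 4 portions with 1-NM-PP1 (3.00, 4.52, 0.587 and 0.980 CPM) against 1 count over the 4 with DMSO (0, 0, 0 and 0.298 CPM). The ratio was 19.5 (95% exact interval 3.08 to 813, counting error only), and the gene was called higher by edgeR (adjusted p = 0.000559). With a filter of 10 counts in 3 libraries it was not tested. OSH6, of the same family and known to carry phosphatidylserine, had an LFC of 1.16 ± 0.42 (adjusted p = 0.0194).

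**Figure D2:**
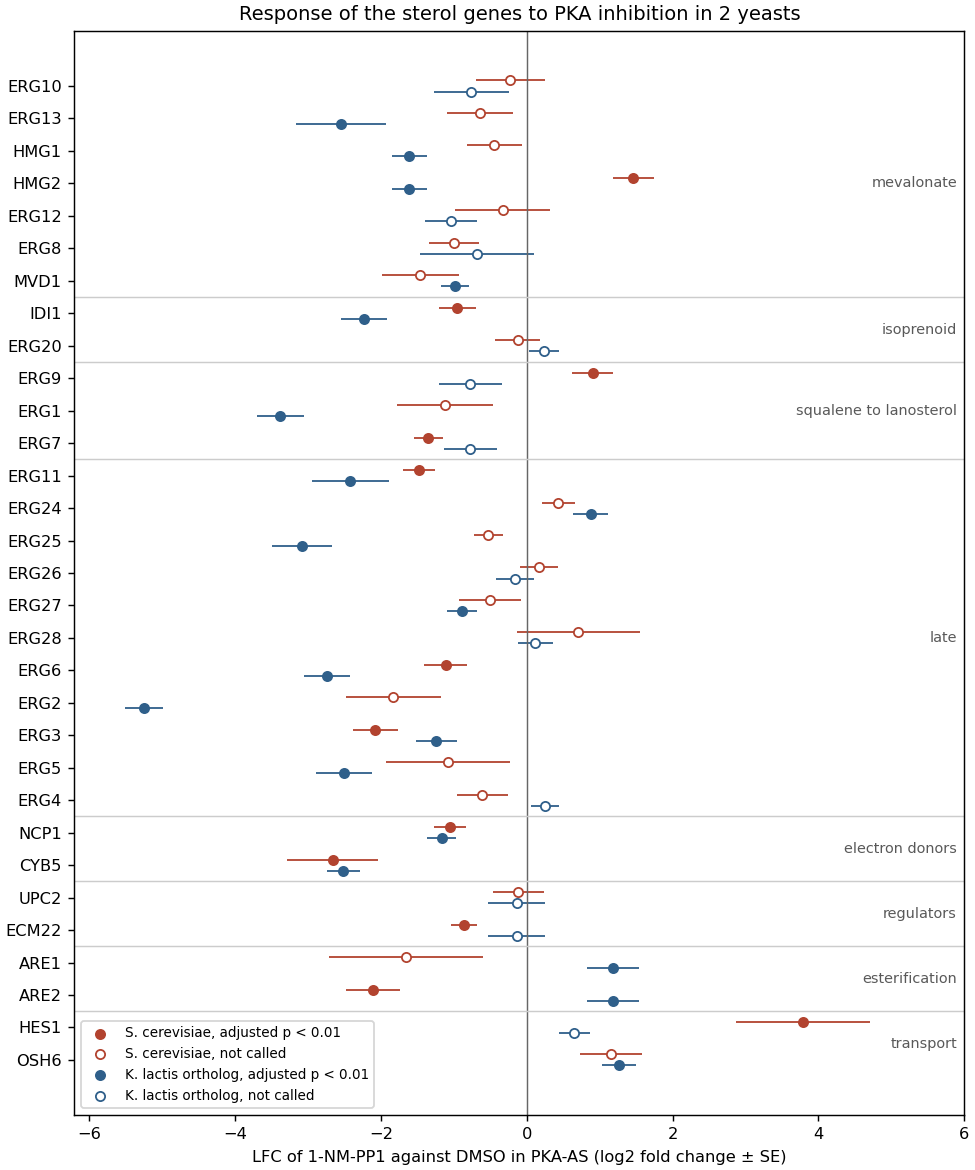
LFC of 1-NM-PP1 against DMSO (x axis, log2 ± SE, edgeR) of the sterol genes in PKA-AS strains without deletion, for *S. cerevisiae* and for the *K. lactis* orthologs, grouped by role down the page. ERG3, ERG11 and CYB5 lie left of 0 in both species, HMG2 lies at 1.46 in *S. cerevisiae* and its ortholog at -1.61 in *K. lactis*.

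PKA inhibition was then followed in *K. lactis*. Of the 28 orthologs, 14 were called lower and 3 higher, against 24.1% and 21.1% of all 5271 genes tested. Of the 28, 12 were called lower with an LFC below -1, against 1151 of all 5271 genes (21.8%). Among genes called lower, these were 12 of the 14 orthologs and 1151 of 1268 of all genes. The median LFC over the 28 was -0.94, against -0.04 over all genes. The genes called lower were ERG13, the HMG-CoA reductase ortholog, MVD1, IDI1, ERG1, 7 late enzymes (ERG2, ERG3, ERG5, ERG6, ERG11, ERG25 and ERG27) and both electron donors. Those called higher were ERG24, the ARE1 and ARE2 ortholog and the OSH6 ortholog. For ERG24 and the ARE1 and ARE2 ortholog, every portion with drug was above every portion with DMSO in PKA-WT cells too.

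The ERG2 ortholog stood lowest. It had 5.00, 3.63, 4.88 and 3.54 CPM with 1-NM-PP1, against 189, 165, 123 and 188 CPM with DMSO, from 5 to 21 counts per portion with drug and 250 to 587 with DMSO (LFC -5.25 ± 0.26, edgeR adjusted p = 7.44e-16). ERG1 had 2.22, 5.81, 5.81 and 6.36 CPM with 1-NM-PP1, against 73.8, 59.3, 35.9 and 45.2 CPM with DMSO (LFC -3.38 ± 0.32). ERG25, a methyl sterol oxidase, had 5.00, 11.6, 14.2 and 9.19 CPM with 1-NM-PP1, against 117, 96.4, 45.9 and 91.9 CPM with DMSO (LFC -3.08 ± 0.41). In all of these genes the highest portion with drug was well under the lowest with DMSO. ERG6 had 63.8, 30.9, 91.8 and 89.1 CPM with 1-NM-PP1, against 517, 361, 377 and 584 CPM with DMSO (LFC -2.74 ± 0.31). ERG13, the HMG-CoA synthase, had 14.4, 10.5, 20.9 and 9.90 CPM with 1-NM-PP1, against 123, 72.4, 95.03 and 41.4 CPM with DMSO (LFC -2.55 ± 0.62). CYB5 had 26.6, 18.9, 17.9 and 12.7 CPM with 1-NM-PP1, against 109, 128, 97.5 and 102 CPM with DMSO (LFC -2.51 ± 0.22). None of these groups overlapped, but these genes were picked for the size of their LFC, so this is no added support.

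Where *S. cerevisiae* has a pair of genes, *K. lactis* has 1. The ortholog of HMG1 and HMG2 had 114, 57.8, 47.4 and 76.4 CPM with 1-NM-PP1, against 248, 189, 166 and 297 CPM with DMSO, an LFC of -1.61 ± 0.24 (edgeR adjusted p = 1.26e-06), opposite in sign to HMG2. The ortholog of ARE1 and ARE2 had 169, 258, 422 and 299.9 CPM with 1-NM-PP1, against 118, 141, 127 and 120.5 CPM with DMSO, an LFC of 1.18 ± 0.35, opposite in sign to ARE2. That last call was lost with the replicate block (adjusted p = 0.0149) and in 5 of 8 fits without 1 library (adjusted p up to 0.0292; without DMSO culture 1, 3 or 2017 or drug culture 3 or 2017). The ortholog of UPC2 and ECM22 had 81.6, 31.3, 34.2 and 40.3 CPM with 1-NM-PP1, against 52.6, 41.3, 27.2 and 85.8 CPM with DMSO (LFC -0.14 ± 0.39, not called). Also higher were OSH6, whose ortholog is shared with OSH7 (LFC 1.26 ± 0.23), and the sterol reductase ERG24 (0.88 ± 0.24; not called without DMSO culture 3 or drug culture 2017, adjusted p up to 0.0131). The HES1 ortholog, shared with KES1, had an LFC of 0.65 (adjusted p = 0.011).

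**Figure D3:**
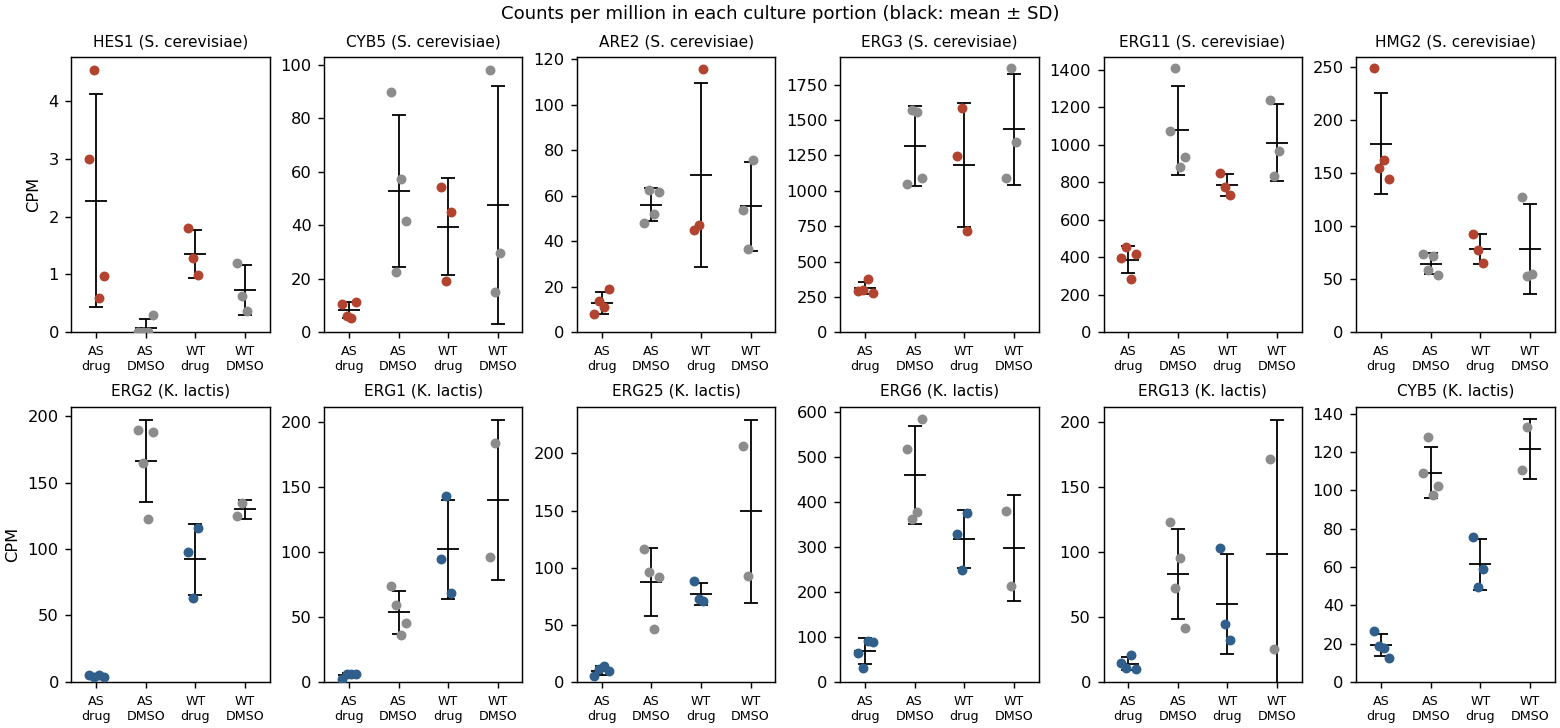
CPM (y axis) in each culture portion of PKA-AS and PKA-WT strains without deletion, with 1-NM-PP1 left of DMSO, for 6 genes of *S. cerevisiae* (top) and 6 orthologs of *K. lactis* (bottom); black marks give the mean ± SD, cut at 0. In PKA-AS *K. lactis* the 4 ERG2 points with drug lie between 3.54 and 5.00 CPM and the 4 with DMSO between 123 and 189 CPM.

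Set side by side, 6 of the 31 genes were called lower in both yeasts: IDI1, ERG11, ERG6, ERG3, NCP1 and CYB5. A further 8 were lower in *K. lactis* and not called in *S. cerevisiae*, among them HMG1, by the ortholog it shares with HMG2. ERG7 and ECM22 were lower in *S. cerevisiae* and not called in *K. lactis*, and HMG2 and ARE2 were called in opposite directions. The rise of the ARE1 and ARE2 ortholog was not particular to PKA-AS cells. In PKA-WT *K. lactis* it had 363, 349 and 349 CPM with 1-NM-PP1, against 160.5 and 138 CPM with DMSO. In *S. cerevisiae* 21.2% of all genes were called lower and 20.7% higher, and in *K. lactis* 24.1% and 21.1%. Calls shared by the yeasts were not counted over all ortholog pairs, so these counts have no share to be set against. Whether the responses differ was tested in 1 joint fit of both species over 4802 ortholog pairs, as the LFC in *S. cerevisiae* minus that in *K. lactis*. This difference was called above 0 for 5 sterol genes and below 0 for 1, against 11.7% and 11.6% of all pairs, and the median over all pairs was -0.13. HMG2 differed by 2.89 ± 0.38 (edgeR adjusted p = 2.82e-09), ERG2 by 3.25 ± 0.78, ERG25 by 2.37 ± 0.41 and ERG6 by 1.44 ± 0.43. HES1 differed by 2.96 ± 0.88, a value that rests on the few counts given above and that was 4.66 without *S. cerevisiae* DMSO culture 3. ARE2 differed by -3.48 ± 0.51 (edgeR adjusted p = 5.4e-08). The calls of ERG6 and of HES1 were each lost in 6 of 16 fits that left out 1 library (adjusted p up to 0.0248 and 0.0601): for ERG6, *S. cerevisiae* DMSO culture 1 or 2, or *K. lactis* DMSO culture 1 or 3 or drug culture 1 or 2; for HES1, *S. cerevisiae* DMSO culture 1, 2 or 2017 or drug culture 1 or 2, or *K. lactis* drug culture 1. With the culture as a replicate block, 10 differences were above 0 and 4 below, against 16.2% and 16.3% of all pairs.

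The late enzymes ERG2, ERG6 and ERG25 thus stood lower in *K. lactis* relative to DMSO than in *S. cerevisiae*, though the ERG6 call depended on single libraries. ERG25 in *S. cerevisiae* had 189.9, 243, 139.6 and 233 CPM with 1-NM-PP1, against 241, 273, 303 and 343 CPM with DMSO. Its groups overlapped in 1 pair of portions (LFC -0.53 ± 0.20), while those of *K. lactis* lay apart. CPM values of the 2 yeasts come from different gene models and their levels are not compared here.

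The drug was also given to PKA-WT cells, whose kinase has the unmutated residue. In PKA-WT *S. cerevisiae*, edgeR and DESeq2 called none of the 31 genes, where edgeR called 0.0173% of all genes lower and 0.121% higher. None of the 31 had an unadjusted p under 0.05, against 477 of all 5779 genes. ERG3 had 1244, 1584 and 719 CPM with 1-NM-PP1, against 1094, 1866 and 1342 CPM with DMSO, in PKA-WT cultures 1, 2 and 3. These overlapped, and the LFC was -0.28 ± 0.34. The response of PKA-AS minus that of PKA-WT was below 0 for ARE2 (-2.42 ± 0.54), ERG3 (-1.80 ± 0.45), ERG7 (-1.25 ± 0.31) and ERG11 (-1.11 ± 0.33), and above 0 for HMG2 (1.47 ± 0.42), against 13.6% and 10% of all genes. The call of ERG11 was lost in 8 of 14 fits without 1 library and that of HMG2 in 6 (adjusted p up to 0.0298 and 0.085), with HMG2 at 0.93 without PKA-WT DMSO culture 1. For ERG11 these were PKA-AS DMSO cultures 1 and 2, PKA-AS drug cultures 1 and 2017, PKA-WT DMSO cultures 2 and 3 and PKA-WT drug cultures 1 and 2, and for HMG2 PKA-AS DMSO cultures 2 and 3, PKA-AS drug culture 1, PKA-WT DMSO culture 1 and PKA-WT drug cultures 2 and 3. ERG3 was lost only without PKA-WT drug culture 2 (adjusted p = 0.0106). The replicate block gave 9 differences below 0, where 17.7% of all genes were.

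In PKA-WT *K. lactis*, edgeR called none of the 28 orthologs, where 3.72% of all genes were called lower and 2.43% higher. An unadjusted p under 0.05 was found for 8 of the 28, and for 1508 of all 5271 genes tested. DESeq2 called CYB5 lower and ERG24 higher. ERG2 had 97.9, 63.4 and 115 CPM with 1-NM-PP1, against 125 and 135 CPM with DMSO, and the groups did not overlap (LFC -0.48 ± 0.26). The ARE1 and ARE2 ortholog had 363, 349 and 349 CPM with 1-NM-PP1, against 160.5 and 138 CPM with DMSO, in PKA-WT cells (LFC 1.24 ± 0.46, adjusted p = 0.0685). Its response in PKA-AS minus that in PKA-WT was -0.06 ± 0.57 (adjusted p = 0.957). The PKA-AS response was lower than the PKA-WT one for 6 orthologs, against 7.97% of all genes: ERG2 (-4.77 ± 0.38), ERG1 (-2.92 ± 0.48), ERG6 (-2.83 ± 0.50), IDI1 (-2.04 ± 0.50), CYB5 (-1.54 ± 0.35) and NCP1 (-1.19 ± 0.32). None was higher by edgeR without a block (3.4% of all genes) or by DESeq2. With the replicate block the OSH6 ortholog was higher and ERG3 joined those lower, where 3.87% of all genes were called higher and 9.66% lower. Without a block, 15 of the 28 had an unadjusted p under 0.05 in either direction, as had 1725 of all 5271 genes. The calls of NCP1, IDI1 and CYB5 were lost in 9, 4 and 2 of 13 fits without 1 library (adjusted p up to 0.0454, 0.0659 and 0.0156), and those of ERG2, ERG1 and ERG6 in none. NCP1 was lost without each PKA-WT library, PKA-AS DMSO culture 1 or 3 or PKA-AS drug culture 2 or 2017, IDI1 without PKA-AS drug culture 2, PKA-WT DMSO culture 2 or PKA-WT drug culture 1 or 3, and CYB5 without PKA-WT DMSO culture 1 or drug culture 1.

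In *S. cerevisiae*, the response of several late genes in the quadruple deletion differed from that without deletion. In ΔMsn2/4 only ERG3 and ERG6 were called as different, and in ΔRph1/Gis1 no gene was. In ΔMsn2/4, 1-NM-PP1 lowered 1 sterol gene (ECM22, LFC -0.84 ± 0.18) and raised 1 (ERG9, 1.15 ± 0.29), against 12% and 8.69% of all genes. The median LFC of the 31 was 0.03. Without drug cultures 3 and 4 neither was called, and ERG9 was not called without DMSO culture 2 or drug culture 4 alone (adjusted p up to 0.0111). The replicate block gave 3 lower and 4 higher, against 15.4% and 12.6% of all genes. In ΔRph1/Gis1 there were 9 genes lower and 3 higher, against 20.5% and 19.8% of all genes, with a median LFC of -0.39. Of these, CYB5 was lost in 7 of 8 fits without 1 library, all but DMSO culture 4, ERG8 in 4 (DMSO culture 3 or 4, drug culture 1 or 2) and ERG9 in all 8 (adjusted p up to 0.0267, 0.0238 and 0.0282). In the quadruple deletion 4 were lower (UPC2, ARE2, IDI1 and ERG11) and 2 higher (ERG27 at 1.72 ± 0.43 and ERG26 at 1.04 ± 0.26), against 11.8% and 6.9% of all genes, and the median LFC was 0.66. ERG26 and ERG27 were not called without DMSO culture 3 (adjusted p = 0.0175 and 0.0159), IDI1 in 6 of 8 fits, all but DMSO culture 1 and drug culture 2, and ERG11 in 3 (DMSO culture 3, drug culture 2 or 4; adjusted p up to 0.0167 and 0.0133). The replicate block gave 8 higher, where 13.7% of all genes were. The strain without deletion enters each of the differences below.

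The difference between responses was tested as an interaction, the LFC in the deletion minus the LFC without deletion. In ΔMsn2/4 it was called for ERG3 (2.03 ± 0.42, edgeR adjusted p = 0.000444) and ERG6 (1.63 ± 0.41, adjusted p = 0.0044), both higher, against 5.05% of all genes. ERG3 in ΔMsn2/4 had 1256, 1682, 796 and 885 CPM with 1-NM-PP1, against 994, 1522, 692 and 1547 CPM with DMSO (cultures 1 to 4). These groups overlapped, where those of the strain without deletion did not. ERG6 in ΔMsn2/4 had 1131, 1307, 1168 and 1935 CPM with 1-NM-PP1, against 671, 894, 919 and 1396 CPM with DMSO. Without drug cultures 3 and 4, ERG3 kept its call (2.38) and ERG6 lost it (1.44, adjusted p = 0.0264); ERG6 also lost it in 5 of 16 fits without 1 library (adjusted p up to 0.0169; ΔMsn2/4 DMSO culture 1 or 2 or drug culture 4, or without deletion DMSO culture 2017 or drug culture 1). None was lower by edgeR without a block (3.51% of all genes) or DESeq2. An unadjusted p under 0.05 in either direction was found for 12 of the 31, and for 1430 of all 5779 genes. The replicate block gave 5 higher and 1 lower, against 8.06% and 6.09% of all genes.

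In the quadruple deletion 6 interactions were called without a block, all higher, against 6.9% of all genes called higher and 7.75% called lower. For ERG3 the difference was 2.49 ± 0.42 (edgeR adjusted p = 1.3e-05), and it had 1429, 1400.0, 1163 and 1494 CPM with 1-NM-PP1, against 1062, 1146, 578 and 1316 CPM with DMSO. For ERG6 it was 1.96 ± 0.41, with 1346, 1526, 1464 and 2347 CPM with 1-NM-PP1 against 733, 1019, 782 and 1172 CPM with DMSO. For ERG7 it was 1.45 ± 0.29 (adjusted p = 0.000135), with 123, 105, 104 and 113 CPM with 1-NM-PP1 against 111, 104, 90.2 and 110.1 CPM with DMSO. In this strain the ERG3 and ERG7 groups overlapped, and every ERG6 value with drug was above every value with DMSO.

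The other called interactions were those of ERG2, CYB5 and ERG27. ERG2 differed by 3.23 ± 0.91 (adjusted p = 0.00721), with 53.2, 41.0, 78.0 and 51.9 CPM with 1-NM-PP1 against 30.2, 17.6, 11.8 and 25.98 CPM with DMSO in the quadruple deletion. CYB5 differed by 2.83 ± 0.83 (adjusted p = 0.00982), with 39.5, 27.1, 46.1 and 34.02 CPM with 1-NM-PP1 against 37.4, 25.8, 46.4 and 20.5 CPM with DMSO. ERG27, a keto sterol reductase, differed by 2.23 ± 0.61 (adjusted p = 0.00506), with 479, 333, 389 and 362 CPM with 1-NM-PP1 against 183, 102, 50.5 and 139 CPM with DMSO in the quadruple deletion. The ERG2 and ERG27 groups did not overlap, with drug above DMSO, and the CYB5 groups overlapped. Leaving out 1 of the 16 libraries lost the call of CYB5 in 13 fits, of ERG2 in 9 and of ERG27 in 6 (adjusted p up to 0.0349, 0.0245 and 0.0164). For CYB5 the exceptions were DMSO culture 3 and drug culture 2 of the quadruple deletion and DMSO culture 2 without deletion. For ERG2 the libraries were DMSO cultures 2, 3 and 4 and drug cultures 1 and 3 of the quadruple deletion, with DMSO cultures 1 and 2017 and drug cultures 2 and 2017 without deletion. For ERG27 they were DMSO cultures 2 and 3 and drug culture 1 of the quadruple deletion, with DMSO culture 1 and drug cultures 2 and 3 without deletion. Leaving out the 2017 cultures lost ERG2 and CYB5. ERG3, ERG6 and ERG7 lost it in none. The replicate block gave 11 higher and 1 lower, against 12.9% and 11.9% of all genes.

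**Figure D4:**
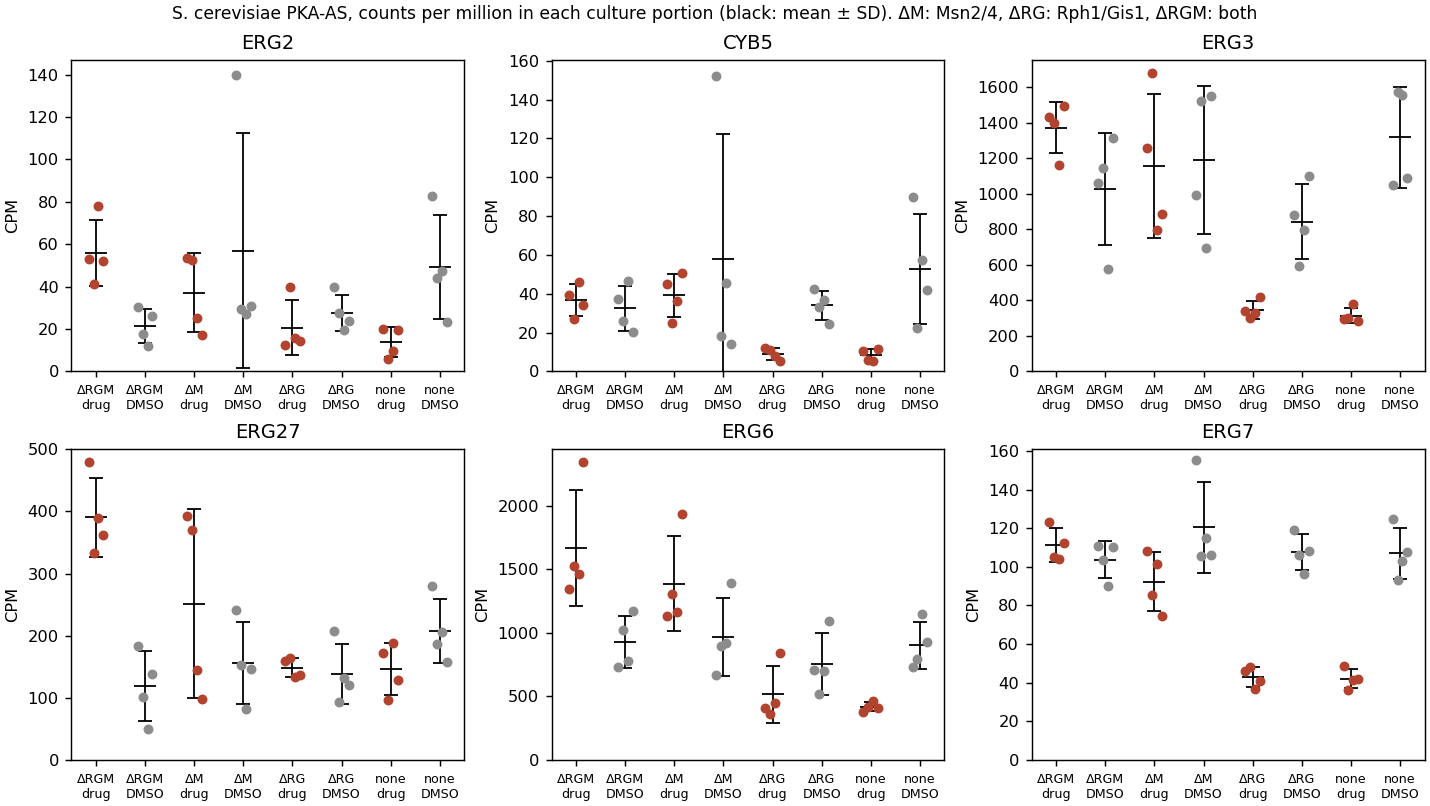
CPM (y axis) of 6 genes in every *S. cerevisiae* PKA-AS culture portion, with 1-NM-PP1 left of DMSO within each strain (quadruple deletion, ΔMsn2/4, ΔRph1/Gis1, no deletion); black marks give the mean ± SD, cut at 0. ERG3 with drug averages 1371 CPM in the quadruple deletion, 1155 CPM in ΔMsn2/4, 346 CPM in ΔRph1/Gis1 and 313 CPM without deletion.

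With only RPH1 and GIS1 deleted, no interaction was called for the 31 genes by edgeR or DESeq2. Of all genes, 0.381% were called lower and 0.0173% higher. An unadjusted p under 0.05 was found for 2 of the 31, and for 429 of all 5779 genes. ERG3 in ΔRph1/Gis1 had 338, 301, 328 and 418 CPM with 1-NM-PP1, against 878, 595, 796 and 1101 CPM with DMSO (LFC -1.28 ± 0.30). HMG2 had 224, 183, 144 and 169 CPM with 1-NM-PP1, against 97.4, 57.8, 51.8 and 70.5 CPM with DMSO (LFC 1.38 ± 0.28). Neither pair of groups overlapped. In ΔMsn2/4 the LFC of HMG2 was 0.58 ± 0.28 (adjusted p = 0.12), and its interaction of -0.88 ± 0.39 was not called (adjusted p = 0.144).

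ARE2, ECM22 and UPC2 had negative LFC in all 4 strains. This was not particular to them. IDI1 and ERG11 were called lower in all but ΔMsn2/4, at -0.92 and -0.81 in the quadruple deletion, -1.45 and -1.59 in ΔRph1/Gis1, and -0.95 and -1.47 without deletion. ARE2 had -1.15 in the quadruple deletion, -0.90 in ΔMsn2/4, -1.85 in ΔRph1/Gis1 and -2.11 without deletion, called in all but ΔMsn2/4. Its call in the quadruple deletion was lost in 7 of 8 fits without 1 library, all but DMSO culture 1 (adjusted p up to 0.04). ECM22 had -0.49, -0.84, -0.93 and -0.86 in the same order, called in all but the quadruple deletion. UPC2 had -1.31, -1.01, -0.69 and -0.11, called in the quadruple deletion only (edgeR adjusted p = 0.00288, not called without drug culture 1, adjusted p = 0.0187). There it had 6.65, 10.9, 10.1 and 10.9 CPM with 1-NM-PP1, against 24.4, 23.7, 25.8 and 21.2 CPM with DMSO. The UPC2 interaction, -1.20 ± 0.49, was not called (adjusted p = 0.0721).

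The same deletions were compared in *K. lactis*. With the Msn2/4 ortholog deleted, 13 orthologs were lower and 3 higher (22.7% and 19.7% of all genes), with the Rph1/Gis1 ortholog deleted 13 and 1 (22.8% and 18.7%), and with both deleted 11 and 3 (19.6% and 12.5%). Calls of ERG3, ERG4, ERG5, ERG11, ERG13, MVD1, NCP1 and OSH6 were each lost in 1 to 6 fits without 1 library in some of these strains (adjusted p up to 0.0537). ERG2 with the Msn2/4 ortholog deleted had 11.01, 7.36, 10.4 and 8.997 CPM with 1-NM-PP1, against 140.2, 166, 135 and 145 CPM with DMSO (LFC -3.96 ± 0.24). With the Rph1/Gis1 ortholog deleted its LFC was -4.57 ± 0.25, and with both deleted -4.07 ± 0.28. ERG1 had -3.99 ± 0.32, -3.28 ± 0.32 and -3.09 ± 0.35 in the same order of strains. No interaction was called by edgeR or by DESeq2 in any of the 3 deletions. An unadjusted p under 0.05 was found for 5, 2 and 4 of the 28 orthologs, and for 236, 350 and 641 of all 5271 genes. The interaction of ERG2 was 1.29 ± 0.33 with the Msn2/4 ortholog deleted (adjusted p = 0.144) and 1.18 ± 0.35 with both deleted (adjusted p = 0.0769). Of all genes, 0.0379% were called lower and 0 higher in the first of these interactions, 0.341% and 0.019% with the Rph1/Gis1 ortholog deleted and 0.968% and 0.0759% with both. Whether the deletions act differently in the 2 species was not tested.

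**Figure D5:**
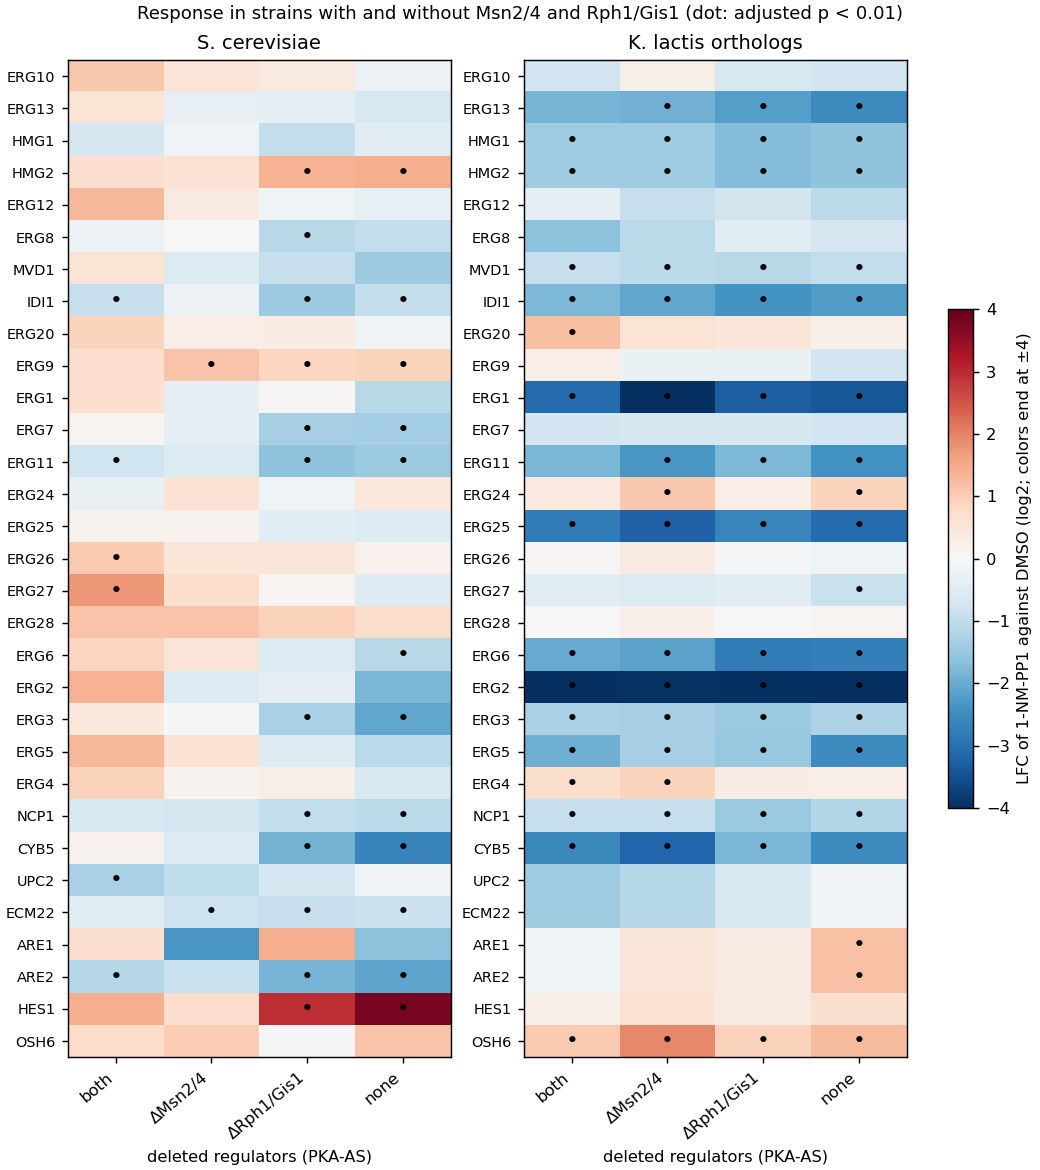
LFC of 1-NM-PP1 against DMSO (color, log2, ending at ±4) of each sterol gene (rows) in PKA-AS strains with the named regulators deleted (columns, no deletion on the right), for *S. cerevisiae* (left) and the *K. lactis* orthologs (right); a dot marks an adjusted p under 0.01, and genes that share a *K. lactis* ortholog repeat its value. In *S. cerevisiae* 4 genes in the quadruple deletion and 9 without deletion are called lower, and in *K. lactis* 11 and 14 orthologs.

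The strains were also compared without the drug. In DMSO, edgeR without a block called none of the sterol genes in any comparison of a deletion with no deletion, in PKA-AS or PKA-WT cells of *S. cerevisiae* or in *K. lactis*, nor between PKA-AS and PKA-WT in either yeast, and DESeq2 called none. In PKA-AS *S. cerevisiae*, 0, 3 and 5 of the 31 genes had an unadjusted p under 0.05 in ΔMsn2/4, ΔRph1/Gis1 and the quadruple deletion. Such a p was found for 176, 682 and 552 of all 5779 genes. Of all genes, 0.0692%, 0.0346% and 0.0692% were called lower there and 0, 1.21% and 0.848% higher. In PKA-WT *S. cerevisiae* 1, 2 and 6 of the 31 had such a p for the same deletions, and 275, 584 and 814 of all genes. Called lower were 0.156%, 0 and 0.104% of all genes, and called higher 0, 0.796% and 0.761%. In *K. lactis* 1, 4 and 4 of the 28 had an unadjusted p under 0.05, and 65, 546 and 614 of all 5271 genes. Called lower were 0, 0.133% and 0.0949% of all genes, and called higher 0, 1.69% and 1.48%. For PKA-AS against PKA-WT, 1 of the 31 and 3 of the 28 had such a p, as had 222 of all *S. cerevisiae* and 265 of all *K. lactis* genes. In either yeast 0 of all genes were called. With the number across all strains and treatments as a replicate block, OSH6 was called higher in ΔRph1/Gis1 of PKA-AS and in ΔRph1/Gis1 and the quadruple deletion of PKA-WT *S. cerevisiae*, where 2.18%, 2.09% and 2.08% of all genes were called higher. ERG2 in ΔMsn2/4 with DMSO had 139.9 CPM in culture 1 and 29.5, 27.1 and 30.98 CPM in cultures 2, 3 and 4, a wide spread within 1 group.

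The genes are given last by whether they have a sterol response element core. In *S. cerevisiae* PKA-AS the median LFC was -1.11 for the 11 with a core, with 10 negative and 4 called lower, against -0.48 for the 20 without, with 14 negative and 5 called lower. The ranges overlapped, at -2.66 to 0.71 and -2.11 to 3.79. In *K. lactis*, where the split still rests on the *S. cerevisiae* sequence, the medians were -2.51 for the 11 and -0.76 for the 17 other orthologs. In the quadruple deletion the median interaction was 1.62 for the 11, with 0 negative, against 0.66 for the 20, with 7 negative. In ΔMsn2/4 the medians were 0.93 with 0 negative of the 11, against 0.34 with 5 negative of the 20. The medians over all genes tested were between -0.04 and 0.05 in these comparisons. Of the 11, 6 are late enzymes, so the split by sequence is also a split by role, and no test was made of it.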

How the data were processed

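The authors deposited raw counts of QuantSeq 3′ reads per gene, 1 column per library. Per the study's methods, reads were aligned to the R64 (*S. cerevisiae*) or ASM241v1 (*K. lactis*) assembly, and htseq counted those overlapping genes with added 3′ UTRs (400 bases in *K. lactis*); its version is not given in the sources used here. Repeat libraries of 1 culture portion were summed. The library dropped per its label was left out, rows that name no gene stayed out of library sizes, and no count of molecules was made, so intervals cover counting error only. Genes with at least 2 counts in 3 libraries were tested with edgeR 4.0.16 (quasi-likelihood, TMM scaling, all cultures of a species in 1 fit; R 4.3.3), with Benjamini-Hochberg adjustment over all genes tested, calls at an adjusted p under 0.01, and the standard error taken as the LFC over the root of F. CPM values were scaled to TMM totals. Species were compared in a joint fit over 4802 ortholog pairs. The fits were also run on simulated counts without any effect of culture, which cannot test them under the pairing of portions.

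The 31 members and the gene lists were chosen with earlier results of these data known. Values per culture are printed for the 6 members with the largest LFC called in each species, those called in opposite directions in the species, those called in an interaction or species difference (up to 6), and the gene pairs HMG1 and HMG2, ARE1 and ARE2, and UPC2 and ECM22. For genes picked by their LFC or call, groups that do not overlap are thus no added support, and overlap was not counted over all genes. From other lists at most 3 called genes are named, by LFC.

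Since each culture was divided, portions with the same number pair by design. Deviations from group means correlated between same-numbered portions from -0.279 to 0.870 in *S. cerevisiae* (median 0.568, 24 of 28 pairs over 0.1) and from -0.341 to 0.755 in *K. lactis* (median 0.508, 13 of 17 pairs over 0.1). The alternatives were the replicate block, RLE scaling, a minimum of 10 counts or of 1, DESeq2 1.42.0, only the groups compared, each library left out, and no 2017 cultures. A block by number across strains and the fit without drug cultures 3 and 4 of ΔMsn2/4 were chosen after seeing the data. Without a replicate block, p-values measure the spread between portions within groups as labelled, and treat the portions of 1 culture as independent. Motifs were searched on both strands of R64 from RefSeq.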

Additional observations from a re-analysis of the deposited data

Results flagged for a closer look

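Of 74 groups of 4 cultures checked, 5 held a culture far from the other 3, and chance gives about 1 in 20. In *S. cerevisiae* these were HES1 in DMSO culture 3 of PKA-AS without deletion (0.298 CPM, the others at 0), ARE1 in drug culture 1 of that strain (1.50 CPM, the others at 0), HMG1 in its DMSO culture 1 (271 CPM, the others 396 to 419.7) and ERG2 in DMSO culture 1 of ΔMsn2/4 (139.9 CPM, the others 27.1 to 30.98). In *K. lactis* it was ERG1 in drug culture 1 of PKA-AS without deletion (2.22 CPM, the others 5.81 to 6.36). For HES1 and ARE1, any count in 1 culture is flagged when the other 3 have 0, so the rate of 1 in 20 does not hold for them. The cause of the flagged values was not tested.

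The response to 1-NM-PP1 differed between groups, by edgeR's test of the difference itself, for these genes. In *S. cerevisiae*, PKA-AS minus PKA-WT was -2.42 for ARE2, -1.80 for ERG3, -1.25 for ERG7, -1.11 for ERG11 and 1.47 for HMG2 (log2). In *K. lactis* it was -4.77 for ERG2, -2.92 for ERG1, -2.83 for ERG6, -2.04 for IDI1, -1.54 for CYB5 and -1.19 for NCP1. In *S. cerevisiae* PKA-AS, ΔMsn2/4 minus no deletion was 2.03 for ERG3 and 1.63 for ERG6. The quadruple deletion minus no deletion was 3.23 for ERG2, 2.83 for CYB5, 2.49 for ERG3, 2.23 for ERG27, 1.96 for ERG6 and 1.45 for ERG7. Between the yeasts, *S. cerevisiae* minus *K. lactis* was 3.25 for ERG2, 2.96 for HES1, 2.89 for HMG2, 2.37 for ERG25, 1.44 for ERG6 and -3.48 for ARE2. Which of these were lost without 1 library is given with each result above.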

How the results depend on the processing

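No called LFC turned its sign under an alternative; of HMG1, UPC2 and ARE1, not called in *S. cerevisiae* PKA-AS, UPC2 did, at 0.12 without DMSO culture 3. Counts of sterol genes called moved by over 1.5 times in the comparisons named here, and the cause was not tested. The replicate block by culture gave 14 lower in *S. cerevisiae* PKA-AS and 9 lower in PKA-AS minus PKA-WT. It gave 3 lower and 4 higher in ΔMsn2/4 with 5 higher and 1 lower interactions, 8 higher in the quadruple deletion with 11 higher and 1 lower interactions, 1 higher in *K. lactis* PKA-AS minus PKA-WT, and 10 higher and 4 lower between the yeasts. The replicate block by number across strains gave 9 lower in PKA-AS minus PKA-WT, 3 lower and 4 higher in ΔMsn2/4 with 5 higher and 1 lower interactions, 8 higher in the quadruple deletion with 2 lower interactions, and 1 higher (OSH6) in DMSO for ΔRph1/Gis1 in PKA-AS and for ΔRph1/Gis1 and the quadruple deletion in PKA-WT. Without drug cultures 3 and 4 of ΔMsn2/4, 0 were lower, 0 higher and 1 interaction higher. Without the 2017 cultures 1 ΔMsn2/4 interaction was higher. With only the groups compared, PKA-AS minus PKA-WT gave 0 higher in *S. cerevisiae* and 3 lower in *K. lactis*. DESeq2 gave 4 higher ΔMsn2/4 interactions, 1 lower and 1 higher in *K. lactis* PKA-WT, and 5 higher with the *K. lactis* Msn2/4 ortholog deleted; RLE scaling gave 1 lower in *K. lactis* PKA-WT. Leaving out 1 library gave 2 to 5 lower and 0 to 1 higher in *S. cerevisiae* PKA-AS minus PKA-WT, 1 to 2 lower and 0 to 1 higher in ΔMsn2/4 with 1 to 3 higher interactions, and 1 to 4 lower and 0 to 3 higher in the quadruple deletion with 3 to 6 higher interactions. In *K. lactis* it gave 1 to 4 higher in PKA-AS, 3 to 8 lower in PKA-AS minus PKA-WT and 1 to 2 higher with both orthologs deleted, and between the yeasts 1 to 2 lower and 3 to 7 higher. Depth limits HES1 and ARE1, with few counts per library.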

Other observations

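Genes that share steps with the sterols are given here by fixed lists, with the number called under 1-NM-PP1 against DMSO in PKA-AS cells without deletion (edgeR), where 21.2% of all *S. cerevisiae* genes were called lower and 20.7% higher, and 24.1% and 21.1% of all *K. lactis* genes. The values in brackets are LFC. YEH2, TGL1, SUT1 and HEM14 of *K. lactis* were named after their values were seen. Of 12 other sterol-binding and transfer proteins tested in *S. cerevisiae*, 7 were higher by edgeR and the other 5 were not called. Among them were LAM5 (LFC 3.01) and LAM4 (2.76), which move sterol between membranes at contact sites, and NCR1 (2.39), the yeast relative of the Niemann-Pick protein. In *K. lactis* 6 of 9 were higher, led by NPC2 (2.77), and the other 3 were not called. Of 7 genes of sterol ester and acetate turnover, 3 were lower in *S. cerevisiae*, PRY2 (-2.42), which binds and exports sterol acetate, and the ester hydrolases YEH1 (-2.41) and YEH2 (-1.63), and 2 were higher, with PRY1 (1.98) ahead of TGL1. The 4 tested in *K. lactis* were not called.

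Heme synthesis supplies some of the late oxygen-dependent enzymes. In *S. cerevisiae*, of 8 genes, HEM14 (2.53) and HEM15 (1.83) were higher and the other 6 were not called. In *K. lactis*, 4 of 8 were lower, with HEM1 (-2.66), the first enzyme, HEM13 (-2.05) and HEM12 (-1.95) the furthest, and HEM14 was higher (1.33). Among 8 heme- and oxygen-linked regulators in *S. cerevisiae*, ROX1 (-2.20), the repressor of hypoxic genes, SUT2 (-2.05) and SUT1 were lower and DAP1 (1.88), a partner of Erg11, was higher; in *K. lactis* MOT3 (-2.01) was lower and the other 4 tested were not called. Of 8 genes that degrade or hold HMG-CoA reductase, DER1 (1.09) and UBC7 (0.74) were higher in *S. cerevisiae*, and of 7 in *K. lactis* HRD1 (1.62) and CUE1 (1.13) were higher and SPF1 (-1.29) lower. Of 8 enzymes that draw on farnesyl diphosphate for other ends, RER2 (-2.32), for dolichol, was lower and COQ1 (1.42), for ubiquinone, and NUS1 (1.19) were higher in *S. cerevisiae*, and COX10 (-2.40), for heme A, was lower and RAM2 (1.67) and NUS1 (1.04) were higher in *K. lactis*. The 2 sterol uptake genes tested in *S. cerevisiae* were not called.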
